A study of Mus musculus with 6 samples.

Results

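Ribosome biogenesis and nucleolar genes were read here as a set of 55 genes named by symbol, whose proteins build the ribosome in and around the nucleolus. The table prints symbols in capitals (NPM1, NOP56, NOP58, POLR1A, WDR12), which are given here in mouse style. All 55 of the 55 symbols had a row in the expression table of 24908 genes, and all 55 had a mean of at least 1 FPKM (a read count divided by transcript length and library depth) over the 6 libraries, the level required for a gene to be counted. The lowest means were 3.36 FPKM for Utp20, 3.79 for Wdr12 and 5.24 for Polr1b, so no member lay near the limit. The choice used no difference between genotypes or lobes, but it was made with earlier results of these data known. Of all rows, 12361 passed the same limit and served as the background.

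Bulk polyA RNA-seq was done on the ventral (VP), dorsolateral (DLP) and anterior (AP) prostate of 12-week-old male FVB mice, after weaning kept on a purified diet. The MYC mouse was a Hi-MYC animal, heterozygous for a human c-MYC transgene under the ARR2Pb promoter, a probasin-derived promoter active in prostate epithelium. The WT mouse was a littermate without it. Each lobe was dissociated to single cells and gave 1 library per genotype, so the 6 libraries come from 1 MYC and 1 WT animal. No spread between animals could be measured, no p-value is given, and differences due to genotype and those between the 2 individual mice cannot be told apart. Intervals below are 95% intervals of counting error only.

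Ribosome production begins in the nucleolus, where RNA polymerase I transcribes the long precursor of the 18S, 5.8S and 28S rRNAs. Small nucleolar ribonucleoproteins (snoRNPs) then guide chemical modification of that precursor, those of the box C/D class methylating ribose and those of the box H/ACA class converting uridine to pseudouridine. Separate sets of processing factors trim the precursor and assemble it with ribosomal proteins into the small and the large subunit. MYC is known as a transcription factor that binds many genes of this pathway.

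Depth was estimated from the spacing of low FPKM values as 25640000 reads for WT AP and 34760000 to 50440000 for the other libraries. At these depths 43.2% to 59.9% of the low values used came within 0.1 of a whole number of reads per library, so the depths and the intervals that rest on them are approximate. Estimated reads also rest on the unweighted mean length of a gene's annotated transcripts, such as 8257 bases for Ncl and 862 for Dkc1. That length may differ from the length of the transcripts expressed, which adds to the uncertainty of reads and intervals. The member with the fewest estimated reads had 84 (Wdr12 in WT AP), and the median member had 712 to 1325 reads per library. The Myc row, which may mix reads of the mouse gene and of the human transgene, read 226.4 FPKM in VP, 200.6 in DLP and 230 in AP of the WT mouse. In the MYC mouse it read 1696 FPKM in VP, 586.1 in DLP and 230.9 in AP, so the AP library labelled MYC did not stand above its WT counterpart in this row. The luminal keratin Krt8 was read in every library, at 387.9 to 1292 FPKM. Seminal vesicle secretory genes summed to 524.1 FPKM in MYC AP against at most 0.1858 in any WT library and 11.3 in MYC DLP.

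In the VP, 51 of the 55 members were higher in MYC than in WT, 10 of them at least 2-fold, and none was at least 1.5-fold lower than in WT. The values were compared as the log2 ratio of FPKM + 1, MYC over WT. Among all genes counted, 53.2% had a ratio above 0, 6.88% passed 2-fold upward, 5.95% passed it downward and 14.9% were 1.5-fold lower or more. A 1.5-fold difference upward was reached by 25 members, against 16.7% of all genes. The median ratio of the members was 0.55, with a range from -0.27 to 1.70, whereas that of all genes was 0.04. The 10 members past 2-fold were Npm1, Wdr12, Pus7, Polr1a, Bop1, Nop56, Nob1, Nhp2, Nol6 and Pes1. As deposited, every step held at least 1 of them. With equal library sums the largest VP ratios of box H/ACA and small subunit processing fell to 0.85 (Nhp2) and 0.88 (Nob1), short of 2-fold. The size depended on the scaling of the libraries. With equal library sums 6 members passed 2-fold and the median was 0.35, and relative to Krt8 and Krt18 it was 17 members and 0.81. With sums set equal over all but the cytosolic ribosomal protein genes it was 10 members and 0.59, while the excess over the median of all genes lay between 0.47 and 0.58 in every setting that kept a filter on low values.

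In the DLP, the members lay on either side of the WT level. The ratio was above 0 for 25 members, against 53.5% of all genes, and the median was -0.04 beside 0.03 for all genes. This median lay between -0.27 and 0.04 over the scalings, so its sign was not fixed. No member was 2-fold higher (6.46% of all genes) or 2-fold lower (3.39%). At 1.5-fold, only Npm1 and Bop1 were higher (13.4% of all genes) and Nop58, Nop14 and Nol10 were lower (9.44%).

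In the AP, most members were lower in the library labelled MYC, whose Myc row was at the WT level, than in WT. The ratio was above 0 for 16 members, against 66.4% of all genes, and the median was -0.21 where that of all genes was 0.13. It was below 0 under each scaling, from -0.35 to -0.04. None was 2-fold higher (2.05% of all genes) or 2-fold lower (0.599%), and none was 1.5-fold higher (7.53%). The 5 members at least 1.5-fold lower, against 3.13% of all genes, were Rrp12, Tsr1, Ppan, Nop58 and Rrs1. The lowest of these ratios was -0.70, so the AP differences were small for each gene and shared by many genes.

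**Figure D1:**
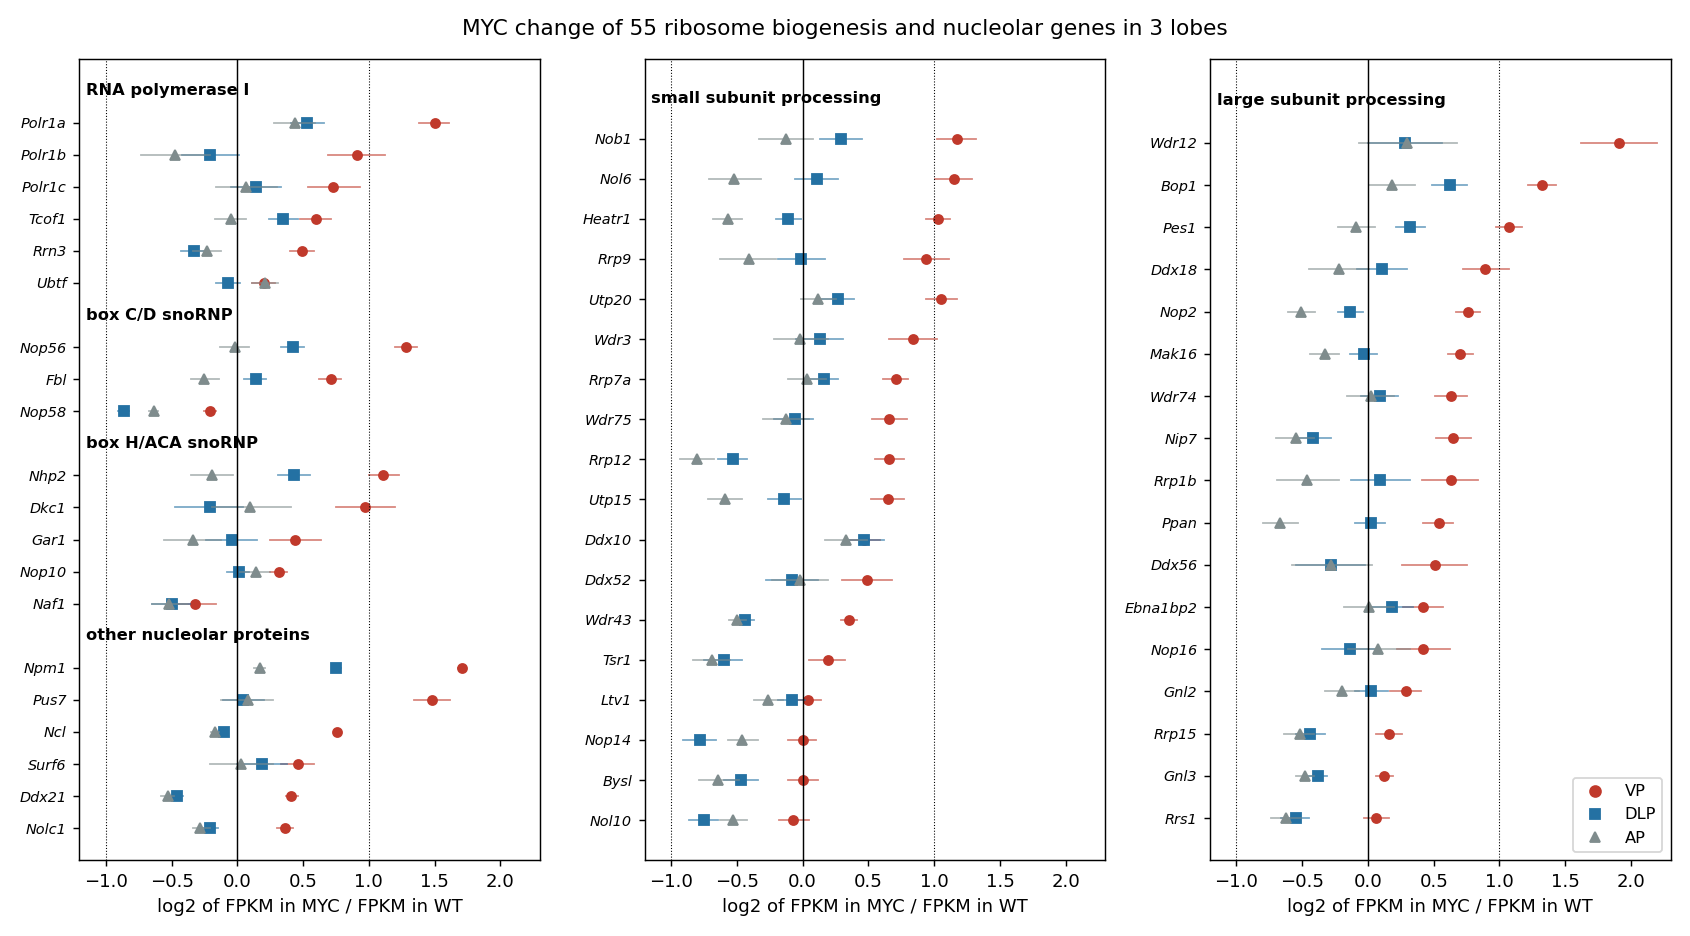
Each row is 1 member, grouped by step, and the horizontal axis is the log2 ratio of FPKM in MYC over WT without a pseudocount. Circles are VP, squares DLP and triangles AP (1 library per lobe and genotype), bars are 95% counting intervals and dotted lines mark a 2-fold difference. The VP points lie to the right of the DLP and AP points for nearly all members, with Npm1, Wdr12, Polr1a and Pus7 farthest to the right.

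The median ratio was similar between the steps in the VP and differed more in the AP. In the VP it was 0.60 for the 6 RNA polymerase I genes, 0.69 for the 3 box C/D genes, 0.42 for the 5 box H/ACA genes, 0.57 for the 18 small subunit genes, 0.55 for the 17 large subunit genes and 0.60 for the 6 other nucleolar genes. In the AP the medians were 0.01 for RNA polymerase I and -0.07 for the other nucleolar genes, -0.19 for box H/ACA, -0.24 for box C/D and for the large subunit, and -0.41 for the small subunit. In the DLP they lay between -0.08 and 0.13. The VP medians were above 0 under each alternative setting, whereas those of RNA polymerase I and the other nucleolar genes in AP, and all but that of the small subunit in DLP, took either sign with the setting. With 3 to 18 genes per step and 1 library per group, differences between steps were not tested.

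Of the genes of RNA polymerase I transcription, the 6 measured members were all higher in MYC VP in the values as deposited. Polr1a encodes the largest catalytic subunit of the enzyme (chr6:71909053-71979435, GRCm38). It read 3.86, 4.73 and 3.91 FPKM in VP, DLP and AP of the WT mouse and 10.9, 6.84 and 5.29 FPKM in the MYC mouse. It was 2.82-fold higher in MYC VP (interval 2.61 to 3.06) and also higher, by 1.45-fold and 1.35-fold, in DLP and AP, which made it the member with the highest AP ratio, 0.36. Polr1b, the second largest subunit, took another course, from 3.73, 6.18 and 5.32 FPKM in WT to 6.99, 5.36 and 3.84 FPKM in MYC. Its ratio was 0.76 in VP and then -0.18 and -0.38 in DLP and AP, so the catalytic pair did not move alike outside the VP. Polr1c, shared by RNA polymerases I and III, had ratios of 0.69, 0.13 and 0.06. Rrn3, the factor that brings the polymerase to the promoter, had 0.45 in VP, -0.30 in DLP and -0.21 in AP. Ubtf, which binds the rDNA promoter and gene body, changed least of the step in VP. Its levels were 19.4, 22.9 and 19.4 FPKM in WT and 22.3, 21.7 and 22.4 FPKM in MYC, and it was the only member whose VP ratio, 0.19, was not the largest of its 3 lobes (AP, 0.20). With equal library sums its VP ratio was -0.03.

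The 3 box C/D genes among the members differed in their ratios, although their proteins sit in the same particle. Nop56 (chr2:130274367-130279313), a scaffold of the particle, read 37.7, 49.7 and 46.1 FPKM in WT VP, DLP and AP and 91.7, 66.6 and 45.5 FPKM in MYC. The difference was 2.43-fold in VP (interval 2.29 to 2.58) and 1.34-fold in DLP, and the AP levels were alike, at 0.986-fold (interval 0.914 to 1.06). Fbl, the methyltransferase fibrillarin, had ratios of 0.69, 0.13 and -0.24, from 42.6, 54 and 47.4 FPKM to 69.5, 59.4 and 40 FPKM. Nop58 (chr1:59684961-59711510), the paralogous scaffold, was lower in MYC in every lobe as deposited. It read 84.2, 132 and 179 FPKM in WT and 73, 72.4 and 116 FPKM in MYC, which is 0.866-fold in VP (interval 0.840 to 0.893), 0.550-fold in DLP (0.533 to 0.567) and 0.645-fold in AP (0.629 to 0.661). Its DLP ratio of -0.85 was the lowest value of any member in any lobe, and relative to Krt8 and Krt18 its VP ratio was 0.06. The ratio of Nop56 thus exceeded that of Nop58 in each lobe of these animals.

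Among the box H/ACA proteins, Nhp2 differed most in the VP and the assembly factor Naf1 was lower in all 3 lobes. Nhp2, a core RNA-binding subunit (chr11:51619773-51623718), read 25.3, 32.8 and 27.1 FPKM in WT and 54.8, 44.1 and 23.7 FPKM in MYC, with a VP fold of 2.17 (interval 2.0 to 2.35). Dkc1, the pseudouridine synthase dyskerin, was at 8.01 FPKM in the VP of the WT mouse and 15.7 in that of the MYC mouse, 1.96-fold (1.68 to 2.29), and its ratios in DLP and AP were -0.19 and 0.09. Gar1, a core subunit, had ratios of 0.42, -0.04 and -0.33. Nop10, the smallest core subunit, had 0.31, 0.01 and 0.14 and was the only member of this class highest in the VP of the WT mouse, with 74.9 FPKM there, 62 in DLP and 38.3 in AP. Naf1 occupies the place of Gar1 during assembly and is exchanged for it. It read 6.28, 9.33 and 11.8 FPKM in WT and 5.04, 6.59 and 8.24 FPKM in MYC, with ratios of -0.27, -0.44 and -0.47.

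**Figure D2:**
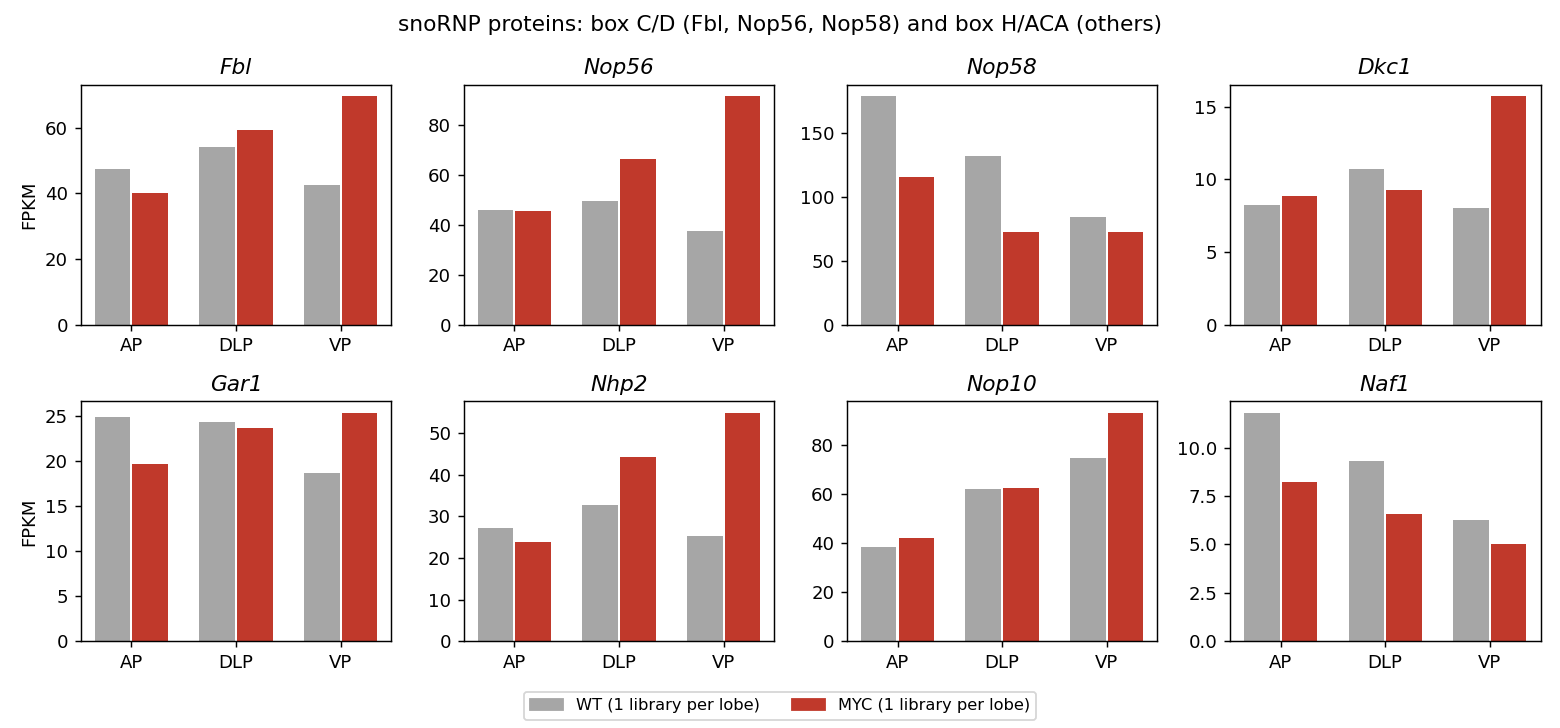
FPKM of the 8 snoRNP proteins in AP, DLP and VP, with a separate vertical axis from 0 for each gene. Grey bars are WT and red bars MYC, each of 1 library, so there is no error bar. In VP the red bar exceeds the grey one for 6 genes, most for Nop56 and Nhp2, and is the shorter one for Nop58 and Naf1.

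The small subunit genes held 8 of 18 members at least 1.5-fold higher in MYC VP (16.7% of all genes) and also the lowest median of any step in AP. Nob1 (chr8:107412489-107425038), the endonuclease that makes the final cut of the 18S rRNA, read 11.9, 15.2 and 13.3 FPKM in WT and 26.8, 18.6 and 12.2 FPKM in MYC. Its VP fold was 2.25 (interval 2.03 to 2.5). Nol6 (chr4:41114427-41124339), an early processing factor, read 9.3, 9.61 and 10.4 FPKM in WT and 20.6, 10.3 and 7.3 FPKM in MYC. It was therefore 2.22-fold higher in VP (2.02 to 2.44) and 0.699-fold in AP (0.612 to 0.799). Heatr1, which takes part in both transcription and early processing, read 4.72, 7.48 and 7.12 FPKM in WT and 9.65, 6.94 and 4.8 FPKM in MYC, with ratios of 0.90, -0.10 and -0.48. Heatr1 and Utp20, another early factor, were 2.04-fold and 2.07-fold higher in VP as plain FPKM ratios and fell short of 2-fold only with the pseudocount. At the other end were Nop14 and Nol10, both components of early precursor particles. Nop14 read 23.3 FPKM in VP of either mouse but 29.3 and 32 FPKM in WT DLP and AP against 17 and 23.4 FPKM in MYC. Nol10 had ratios of -0.06, -0.68 and -0.49. Bysl and Ltv1, factors of later small subunit maturation, had VP ratios of 0.00 and 0.04. Members with the role of early and of late factors thus stood at both ends of the VP range.

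The 17 large subunit genes were all higher in MYC VP as deposited, and 3 of them passed 2-fold (6.88% of all genes). Pes1, Bop1 and Wdr12 encode the subunits of the PeBoW complex, which is needed to process the precursors of the 28S and 5.8S rRNAs, and these were the 3 largest VP ratios of the step. Wdr12 (chr1:60071361-60098500) read 1.97, 3.57 and 2.45 FPKM in WT and 7.39, 4.33 and 3.02 FPKM in MYC. Its VP fold of 3.75 was the highest of all members as a plain FPKM ratio and also the least precise, with an interval of 3.07 to 4.59. Bop1 (chr15:76452988-76477249) read 15.4, 13.5 and 10.3 FPKM in WT and 38.5, 20.7 and 11.6 FPKM in MYC, 2.5-fold in VP (2.32 to 2.69) and 1.54-fold in DLP (1.40 to 1.68). Pes1 (chr11:3963975-3980004) read 16.9, 17.3 and 15.8 FPKM in WT and 35.6, 21.6 and 14.8 FPKM in MYC, 2.10-fold in VP (1.96 to 2.25) and 0.939-fold in AP (0.853 to 1.03). The complex was chosen for mention after its values were seen. The smallest VP ratios were those of Rrs1, which helps bring 5S rRNA into the precursor, 0.06, and of Gnl3 (nucleostemin, a nucleolar GTP-binding protein), 0.12. With equal library sums they were -0.16 and -0.11. Both were lower in MYC in the other lobes, at -0.53 and -0.59 for Rrs1 and -0.37 and -0.47 for Gnl3. Nop2, an rRNA methyltransferase, had 0.72, -0.13 and -0.48, and Ppan, a large subunit assembly factor, had 0.52, 0.02 and -0.65.

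Npm1 (chr11:33152498-33164142), the histone-binding chaperone that makes up much of the granular part of the nucleolus, was the most abundant member and had the largest log2 ratio of FPKM + 1. It read 277, 273 and 301 FPKM in VP, DLP and AP of the WT mouse, which is nearly the same level in each lobe, and 904, 460 and 338 FPKM in the MYC mouse. The folds were 3.26 in VP (interval 3.20 to 3.33), 1.68 in DLP (1.64 to 1.73) and 1.12 in AP (1.09 to 1.16). Npm1 has processed pseudogenes, so how reads were shared between copies is uncertain. It carried 21.7% of the members' summed FPKM in the VP of the WT mouse and 38.1% in that of the MYC mouse. Summed over the members, the total was 1276 FPKM for WT VP and 2372 for MYC VP with Npm1, and 999.2 and 1468 without it. The median ratios without Npm1 were 0.55, -0.05 and -0.23 in VP, DLP and AP, close to those of the full set.

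Among the other nucleolar proteins, Pus7, a pseudouridine synthase that works without a guide RNA (chr5:23740165-23783711), differed beyond counting error in the VP alone. It read 6.15, 8.56 and 6.78 FPKM in WT and 17.2, 8.83 and 7.16 FPKM in MYC, a fold of 2.79 in VP (interval 2.53 to 3.08), 1.03 in DLP (0.924 to 1.15) and 1.06 in AP (0.923 to 1.21). Ncl, or nucleolin, read 61.2, 68.1 and 73.6 FPKM in WT and 104, 63.3 and 65.5 FPKM in MYC. Ddx21, an RNA helicase that also binds RNA polymerase I, had ratios of 0.40, -0.45 and -0.51. Nolc1, a chaperone of snoRNPs, had 0.35, -0.21 and -0.27. The latter 3 genes thus shared a higher level in MYC VP and a lower one in MYC DLP and AP as deposited. Relative to Krt8 and Krt18, the AP ratio of Ncl came to 0.

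The MYC ratio was largest in VP for 54 of 55 members, against 34.5% of all genes, with Ubtf as the exception. The ratios ranked VP, DLP, AP from high to low for 44 members (20% of all genes). The ratio was below 0 in both DLP and AP for 27 members, against 19.8% of all genes. A difference of at least 1.5-fold upward in VP with a ratio at or below 0 in the other lobes was seen for 7 members, Polr1b, Wdr75, Rrp9, Heatr1, Nop2, Mak16 and Ncl, against 0.809% of all genes. All 3 comparisons use libraries of the same 2 animals and are not independent of each other.

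**Figure D3:**
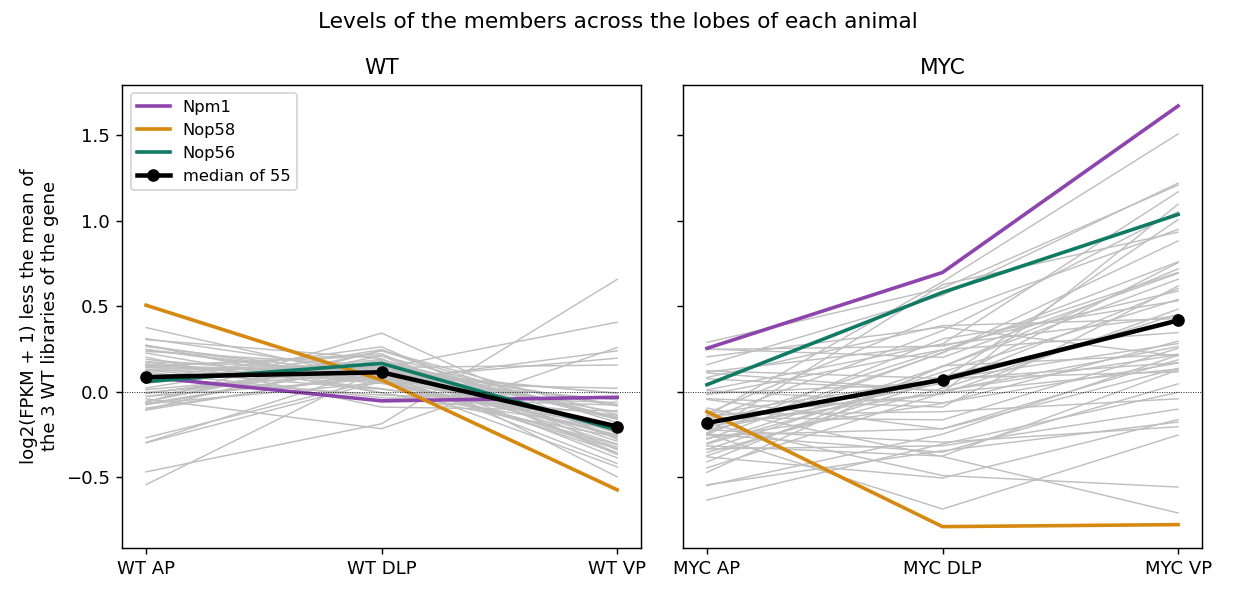
Each line is 1 of the 55 members, plotted as log2(FPKM + 1) less the gene's mean over the 3 WT libraries, for AP, DLP and VP of the WT mouse (left) and the MYC mouse (right). The black line is the median of the 55 members, and Npm1, Nop58 and Nop56 are coloured. The median line is lowest in VP in the WT mouse and highest in VP in the MYC mouse.

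In the WT mouse the members were lowest in the VP. The level was lowest there for 44 of 55 members, against 46.7% of all genes, and highest there for 6, against 32.3%. Over the scalings run for the lobe order (all but that to Krt8 and Krt18) the lowest level was in VP for 36 to 44 members, and with size factors, which gave the 36, the highest was there for 10. The 6 highest in VP as deposited were Nop10, Rrp7a, Ddx10, Wdr74, Bop1 and Surf6. The highest WT level was in DLP for 25 members (35.3% of all genes) and in AP for 24 (32.4%). VP was lower than DLP for 48 members and than AP for 45, where 63.6% and 50.8% of all genes were. The gap was small. The median log2 difference was 0.33 for DLP over VP (0.13 for all genes) and 0.28 for AP over VP (0.01 for all genes), and only 5 and 7 members were at least 1.5-fold higher than in VP (17.9% and 20.7% of all genes). Surf6, a nucleolar matrix protein, went the other way with 21.8 FPKM in VP, 11.7 in DLP and 9.45 in AP. DLP and AP were close to each other, with a median of -0.06 for AP over DLP, and which of the pair held the highest levels changed with the scaling. AP was highest for 38 members when libraries were set to equal sums. Markers of cell types also differed between the WT lobes. In VP, DLP and AP the luminal sum was 4245, 2099 and 2046 FPKM, with Krt8 and Krt18 holding 1292 and 1611 FPKM of the VP sum. The 9 luminal markers did not go one way, as 3 were higher in DLP than in VP and 3 higher in AP. Their median log2 differences were -0.35 for DLP over VP and -0.64 for AP over VP. The basal sum was 794.4, 1655 and 2427, the hematopoietic sum 159.1, 335 and 691.8, and the sum of 10 endothelial markers 37.47, 167.2 and 229.3. The part of these markers in the lobe order was not tested.

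In the MYC mouse the members were highest in the VP. The level was highest there for 49 of 55 members, against 37.9% of all genes. The exceptions were Ubtf, Tcof1, Nop58, Naf1, Nop14 and Nol10. AP was lowest for 39 members (39.9% of all genes), and 27 members were at least 1.5-fold lower in AP than in VP (20.2% of all genes). In the values as deposited, MYC VP also stood above the other WT lobes. The median log2 difference of MYC VP over WT DLP was 0.27, with 42 of 55 members higher (47.6% of all genes), and over WT AP it was 0.32, with 39 members higher (54.2% of all genes). With equal library sums these medians were 0.12 and -0.02, with 33 and 26 members higher, so this comparison did not hold over WT AP.

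The members were set beside other genes of the ribosome. A further 96 ribosome biogenesis genes had median ratios of 0.41 in VP, 0.01 in DLP and -0.10 in AP, and 84 of them were above 0 in VP (53.2% of all genes). The 14 subunits and cofactors of the RNA exosome, which trims rRNA precursors, had 0.36, 0.02 and 0.09. The 78 cytosolic ribosomal protein genes differed far more, with medians of 1.35, 0.68 and 0.28 and 70 of them at least 2-fold higher in VP (6.88% of all genes). In AP, 73 of the 78 ribosomal protein genes were above 0 (66.4% of all genes) while 39 of the 55 members were below 0. The AP ratio was above 0 for 8 of the 14 exosome genes and for 3 of 6 in both the RNA polymerase I step and the other nucleolar genes. In the WT mouse, 45 of the 96 further biogenesis genes (46.9%) were lowest in VP, as were 19 of the 78 ribosomal protein genes (24.4%). Among all genes the share was 46.7%, so the low place of the 55 members in WT VP was not seen in these lists. The sum of the ribosomal protein genes went from 54810 FPKM in the WT VP library to 139100 in that of MYC, and because FPKM is relative to the whole library, this sum bears on the level of every other gene.

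**Figure D4:**
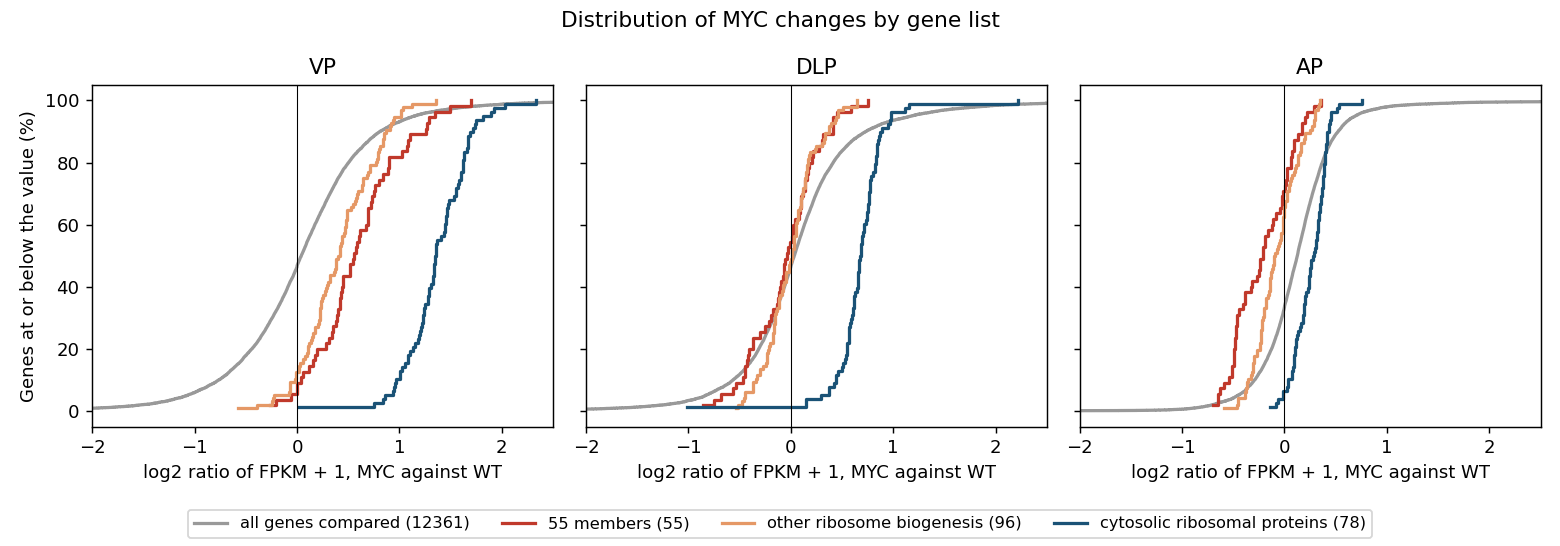
The horizontal axis is the log2 ratio of FPKM + 1 in MYC over WT and the vertical axis the percentage of genes at or below that value, for VP, DLP and AP. Lines are all 12361 genes counted (grey), the 55 members (red), 96 other ribosome biogenesis genes (orange) and 78 cytosolic ribosomal protein genes (blue). The red line lies right of the grey one over most of its range in VP and left of it in AP, and in DLP it runs near the grey line below 0 and left of it above 0, while the blue line lies to the right over most of its range in each lobe.

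Markers of other cell types differed between the same libraries. In bulk RNA, fewer cells of a type and less RNA per cell cannot be told apart. In VP, the summed level of 10 fibroblast markers went from 688.2 FPKM in WT to 211.4 in MYC, that of 9 smooth muscle markers from 428 to 254.4 and that of 13 hematopoietic markers from 159.1 to 478.4. The 9 luminal markers summed to 4245 and 3811 FPKM and the 8 basal markers to 794.4 and 527.6 FPKM. In AP, the basal sum was 2427 in WT and 1326 in MYC (2 of 8 markers above 0, median -0.41, range -1.44 to 1.57). The AP hematopoietic sum was 691.8 and 518.4, but its markers did not move one way. Of these 13 markers 6 were above 0, with a median of -0.04 and a range from -0.65 to 0.46. The AP luminal sum was 2046 and 2166, with 3 of 9 markers above 0 and a median of -0.06. The AP fibroblast sum was 1272 and 1464 and the smooth muscle sum 338 and 446.5 FPKM, beside the seminal vesicle genes named above. In DLP the hematopoietic sum was 335 in WT and 1318 FPKM in MYC, the smooth muscle sum 517.9 and 306.4, the fibroblast sum 1375 and 764.5 and the basal sum 1655 and 2167 FPKM. The fibroblast markers did not move one way there, with 4 of 10 above 0, a median of -0.14 and a range from -1.65 to 2.03. The DLP luminal sum was 2099 in WT and 2716 FPKM in MYC, while 4 of 9 markers were above 0 and their median was -0.23. The median ratios of 11 proliferation genes were 2.04, 2.07 and 0.72 in VP, DLP and AP, so VP and DLP were alike in these genes and unlike in the ribosome biogenesis genes. None of the markers was at 0 in any library except genes of the seminal vesicle list. The part of these shifts in the members' results was not tested.

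Some members host snoRNAs in their introns or overlap other genes. In the RefSeq annotation of GRCm38.p6, 8 members contain a snoRNA gene, namely Nop56, Nop58, Wdr43, Gnl3, Ppan, Ncl, Dkc1 and Tsr1. Their median ratios were 0.43, -0.28 and -0.48 in VP, DLP and AP, against 0.57, -0.01 and -0.21 for the other 47. A further annotated gene, protein-coding or a long non-coding RNA, overlaps 16 of the members, among them Polr1a, Nop56, Dkc1 and Nhp2. The libraries were stranded, but whether the counting used the strand is not given in the sources used here, so reads of such pairs may not be separated.

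Promoters were compared for the canonical E-box CACGTG, the motif bound by MYC with its partner MAX. The window ran from 250 bases before to 50 bases after the annotated start, and 45 of the members had one. The motif reads the same on both strands and was found in 9 of the 45 members (20%), namely Pus7, Nop2, Ltv1, Utp20, Pes1, Tsr1, Rrp7a, Rrn3 and Wdr43. It was found in 12% of the 9561 genes with a window that passed 1 FPKM and in 8.09% of all 27025 genes. The variant CACGCG, searched on both strands and unable to overlap CACGTG, was in 15 members (33.3%), against 19.9% and 10.5%. Members with CACGTG had median ratios of 0.69, -0.08 and -0.21 in VP, DLP and AP, and the 36 without it 0.54, -0.06 and -0.20. In VP the members with it ranged from 0.04 to 1.35 and those without from -0.20 to 1.5, so the groups overlapped over most of their range. A match describes the letters of the window and is not a binding site.

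Below are 5 promoter windows from RefSeq, GRCm38.p6, 5′ to 3′ on the strand of the gene, with the E-box in capitals. Pus7 (chr5:23783662-23783961, minus strand) and Pes1 (chr11:3963725-3964024, plus strand) hold it and were more than 2-fold higher in MYC VP. Tsr1 (chr11:74897830-74898129, plus strand), a factor of late small subunit assembly, holds it and had ratios of 0.18, -0.57 and -0.65. Nop56 (chr2:130274162-130274461, plus strand) and Nop58 (chr1:59684756-59685055, plus strand) are the box C/D scaffolds whose ratios differed most within the particle, and neither window holds it.
Pus7: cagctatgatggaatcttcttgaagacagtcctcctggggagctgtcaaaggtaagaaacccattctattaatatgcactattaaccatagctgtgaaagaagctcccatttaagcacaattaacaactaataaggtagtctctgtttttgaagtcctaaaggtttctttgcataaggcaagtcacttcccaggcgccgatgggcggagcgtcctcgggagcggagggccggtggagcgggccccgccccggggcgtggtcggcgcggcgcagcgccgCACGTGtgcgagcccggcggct
Pes1: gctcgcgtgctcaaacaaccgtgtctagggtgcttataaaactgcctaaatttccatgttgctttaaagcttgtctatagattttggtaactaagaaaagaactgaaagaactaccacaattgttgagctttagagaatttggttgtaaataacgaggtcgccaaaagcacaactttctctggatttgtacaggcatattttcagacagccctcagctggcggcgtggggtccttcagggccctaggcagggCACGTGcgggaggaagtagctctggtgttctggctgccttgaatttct
Tsr1: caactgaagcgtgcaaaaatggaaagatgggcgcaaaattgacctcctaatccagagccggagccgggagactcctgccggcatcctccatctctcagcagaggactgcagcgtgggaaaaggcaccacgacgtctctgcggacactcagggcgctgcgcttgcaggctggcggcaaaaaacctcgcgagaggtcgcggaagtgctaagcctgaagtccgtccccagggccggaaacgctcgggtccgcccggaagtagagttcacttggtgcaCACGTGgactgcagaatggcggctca
Nop56: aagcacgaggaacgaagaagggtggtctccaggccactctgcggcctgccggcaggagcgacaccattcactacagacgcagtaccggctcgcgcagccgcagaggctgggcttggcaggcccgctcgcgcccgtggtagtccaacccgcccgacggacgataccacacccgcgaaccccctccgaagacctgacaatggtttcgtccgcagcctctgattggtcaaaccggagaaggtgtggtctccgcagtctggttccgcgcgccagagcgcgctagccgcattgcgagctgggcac
Nop58: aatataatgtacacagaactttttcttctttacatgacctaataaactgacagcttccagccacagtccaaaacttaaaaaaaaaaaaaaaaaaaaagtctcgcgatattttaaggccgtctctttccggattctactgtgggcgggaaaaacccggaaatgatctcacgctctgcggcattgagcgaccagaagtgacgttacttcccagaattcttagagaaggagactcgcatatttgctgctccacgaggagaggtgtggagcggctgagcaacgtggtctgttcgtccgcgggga
Counted with the start base as the first, the motif begins at base 29 in Pus7, 3 in Pes1 and 25 in Tsr1. The VP ratios of these genes were 1.35, 1.03 and 0.18. These windows were picked for display from the 9 members with the motif, and its position was not tested against the ratio. The GC content of the windows was 66% for Nop56 and 45.3% for Nop58, with 55.3%, 46% and 60.7% for Pus7, Pes1 and Tsr1.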

How the data were processed

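Per the labels, polyA RNA of 6 prostate libraries was sequenced as stranded single-end reads. The authors aligned reads with STAR and computed FPKM with Cufflinks on mm10 (base calls by bcl2fastq 2.18, per the submitters' processing notes), and the deposited table holds FPKM for 24908 genes in 6 columns. The annotation used is not given in the sources used here.

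Ratios were log2((FPKM in MYC + 1)/(FPKM in WT + 1)), and genes were counted if their mean over the libraries reached 1 FPKM. With 1 library per group no test was run. Member counts past 2-fold or 1.5-fold are given beside the percentage of all counted genes. Reads were estimated from FPKM, GENCODE transcript lengths and a depth read from steps of low values below 0.3 FPKM, in 1697 genes with 1 exon and 1 transcript. Exact binomial 95% intervals of the plain FPKM ratio cover counting error only. Coordinates and promoters are RefSeq GRCm38.p6. Calculations used Python 3.11.15, numpy 2.4.6, pandas 2.3.3 and scipy 1.17.1, and figures matplotlib 3.10.9. The ratio, the 2-fold call and the depth estimate were checked on simulated data, whereas the intervals, medians and lobe orders were not.

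Members, steps and marker lists were chosen with earlier results of these data known. Genes named by rule were the 3 largest and 2 smallest VP ratios of each step, members 2-fold different in DLP or AP (there were none), the 3 highest mean levels, and Myc. Other members were named after their values were seen. Alternatives were 4 scalings (median-of-ratios size factors, equal sums, equal sums without the 20 highest genes, relative to Krt8 and Krt18), a pseudocount of 0.1, no filter, a mean of at least 10 FPKM and a 1.5-fold threshold. Equal sums without ribosomal protein genes, and the scalings of MYC VP over the other WT lobes, were added after seeing the data.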

Additional observations from a re-analysis of the deposited data

Results flagged for a closer look

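Some ratios were above 0 in VP and below 0 in another lobe, and are listed here. Single genes had to be 1.5-fold higher in VP with an AP or DLP counting interval wholly below 0. For a set of genes, the median of its genes' lower bounds had to be above 0 in VP and that of their upper bounds below 0 in the other lobe, which is a way of choosing and not an interval of the median. These are differences between single pairs of libraries and were not tested. The median ratio of all members was 0.55 in VP and -0.21 in AP, a difference of 0.76 on the log2 scale. By step, the VP median exceeded the AP median by 0.93 for box C/D, 0.61 for box H/ACA, 0.98 for small subunit processing and 0.79 for large subunit processing. For single genes the difference between VP and AP was 1.14 for Polr1b, 0.93 for Fbl, 1.27 for Nhp2, 1.53 for Nol6, 1.28 for Rrp9, 1.38 for Heatr1, 1.2 for Nop2, 1.0 for Mak16 and 0.92 for Ncl, all 55 members having been screened. Heatr1, Nop2 and Ncl also had opposite signs in VP and DLP, with differences of 0.99, 0.86 and 0.85.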

How the results depend on the processing

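No paired analysis was possible because each genotype was 1 animal, so a fit paired by lobe would treat the 3 lobes of 1 animal as replicates and could not separate genotype from animal. Among the 28 named genes, a ratio past 2-fold in a lobe kept its sign in that lobe under each alternative, whereas smaller ratios of 6 genes in VP, 8 in DLP and 8 in AP changed sign or came to 0. The 10 members at least 2-fold higher in VP became 6 with equal sums, 5 with equal sums without the 20 highest genes, 17 relative to Krt8 and Krt18, and 25 at 1.5-fold. The VP median of 0.55 became 0.35, 0.32 and 0.81 under the first 3 of these, while the median of all genes moved to -0.15, -0.18 and 0.30. Less that median, the members' VP median lay between 0.47 and 0.58 under the filtered settings, the DLP median between -0.09 and -0.06 and the AP median between -0.37 and -0.29. In DLP, 2 members were higher and 3 lower at 1.5-fold, and 1 was 2-fold lower without the 20 highest genes and 1 relative to the keratins, where the DLP median was -0.21 and -0.27. In AP, 5 members were lower at 1.5-fold, and the median was -0.35 with size factors and -0.04 relative to the keratins. Members highest in WT DLP numbered 13 with size factors, 11 with equal sums, 16 at a mean of at least 10 FPKM and 12 without ribosomal protein genes. Members highest in WT AP numbered 38 with equal sums and 37 without ribosomal protein genes, and 10 were highest in WT VP with size factors. Of the 38 members with a mean of at least 10 FPKM, 29 were lowest in WT VP. Every step's median kept its sign in VP under each alternative, as did 22 of the 28 named genes, against 0 of 6 steps in DLP (that of the small subunit came to 0 without ribosomal protein genes and was otherwise below it) and 4 of 6 in AP.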
